A study of Homo sapiens with 12 samples.

Results

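The set described here holds the factors that start, lengthen and end protein chains on cytosolic ribosomes: 38 genes of the 19580 in the deposited table, taken by a fixed list of gene identifiers. It comprises 5 rows of the eEF1 group, EEF2, EIF5A, the eEF1A-binding protein TPT1, and 7 members of a cap and poly(A) group (eIF4 factors and poly(A)-binding protein). The rest are the 13 subunits of eIF3, the 3 subunits of eIF2, 5 factors of start-site choice and subunit joining, and both release factors. The table gives Ensembl identifiers only, and the symbols used are those supplied with the list of identifiers. One identifier of the list, ENSG00000124786, could not be matched to its listed symbol EEF1E1 with the sources at hand, may stand for another gene and is called by its identifier; without it the set is 37.

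Ribosome footprints, the short mRNA stretches that ribosomes shield from RNase, were sequenced from wild-type HAP1, a human cell line with a near-haploid genome that descends from the leukaemia line KBM-7. There were 4 groups of 3 biological replicates: untreated cells, cells given 5 uM 4-thiouridine (4SU) for 18 h, cells irradiated with 6 kJ/m2 UVA, and cells given both (4SU+UVA), the irradiated groups being harvested 30 min later. The treatment of each library was taken from its title and treatment label, since the protocol text is the same for all 12. 4SU is a uridine analogue that cells build into new RNA and that UVA light activates, so that RNA becomes crosslinked to protein; the study's title names translation-coupled sensing of such crosslinks. Values are RPKM, reads scaled to the length of the transcript and to the size of the library, so each is a share of a library's footprints and not an amount per cell. In such bulk libraries fewer ribosomes per mRNA, less mRNA and fewer cells with the mRNA cannot be told apart. Library totals ran from 1899854 to 5832366 reads, and replicates of a group correlated at r = 0.982 to 0.991 across genes. The identity of the line was not checked against marker genes, since the identifiers could not be joined to symbols beyond the list. All tests were two-sided limma tests on log2(RPKM + 0.5) with Benjamini-Hochberg adjustment over the 11510 genes that reached 1 RPKM in 3 or more libraries, and a gene was said to rise or fall when its adjusted p was under 0.05. Of the 38 members 37 passed this filter; EIF3C did not.

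As background, initiation begins when eIF4E binds the mRNA cap and, through the scaffold eIF4G, recruits the helicase eIF4A and the small ribosomal subunit, which carries eIF3 and the initiator tRNA bound to eIF2. After the start codon is chosen and eIF5B joins the large subunit, eEF1A brings in aminoacyl-tRNAs and eEF2 moves the ribosome along, until eRF1 and eRF3 release the finished protein. The mRNAs of many elongation factors, and of several initiation factors, begin with a C followed by a run of pyrimidines, the 5′ terminal oligopyrimidine (TOP) motif, through which mTOR controls their translation together with that of ribosomal protein mRNAs.

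The starts of 10 members are shown because they bear on the contrast of TOP mRNAs with the rest; EIF5B and EIF1, the members with the largest fall and the largest rise, are among them. Each window holds 10 bases before and 20 bases from an annotated RefSeq start in GRCh38.p14, read 5′ to 3′ on the gene's strand, with the run of C and T that begins at the annotated first base, where that base is C and at least 4 pyrimidines follow, in capitals. The first 5 belong to the TOP list, which was taken from textbook knowledge, and the last 5 do not.
EEF2 (chr19:3985444-3985473, minus strand): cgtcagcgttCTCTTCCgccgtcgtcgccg
EEF1A1 (chr6:73521013-73521042, minus strand): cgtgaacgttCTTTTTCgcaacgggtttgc
EIF4B (chr12:53006446-53006475, plus strand): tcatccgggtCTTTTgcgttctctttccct
EIF3F (chr11:7987327-7987356, plus strand): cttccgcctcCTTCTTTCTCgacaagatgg
TPT1 (chr13:45341164-45341193, minus strand): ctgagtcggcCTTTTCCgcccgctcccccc
EIF4A1 (chr17:7572815-7572844, plus strand): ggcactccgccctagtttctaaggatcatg
EIF4A2 (chr3:186783567-186783596, plus strand): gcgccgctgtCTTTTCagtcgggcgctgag
EIF2S3 (chrX:24054946-24054975, plus strand): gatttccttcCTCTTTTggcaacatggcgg
EIF5B (chr2:99337379-99337408, plus strand): ctgagaactcacaccatatgtgtcctgttc
EIF1 (chr17:41688875-41688904, plus strand): ccgcccctctgccccagtcactgagccgcc
The windows of EEF2, EEF1A1, EIF4B, EIF3F and TPT1 had such a run from their first base, and so did EIF4A2 and EIF2S3, which are not on the TOP list. EIF4A1, EIF5B and EIF1 had none there. The RefSeq table held a start for 29 of the 38 members. A C followed by at least 4 bases that are all C or T (sense strand only), at the first base of a start, was found for 6 of the 7 TOP-list members with a start, EEF1G being the exception, and for 5 of the 22 others, namely EIF4A2, EIF3D, EIF3K, EIF3M and EIF2S3. Of all 35116 RefSeq starts in the table, 4.07% had the motif at the first base and 21.1% had it within 5 bases.

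With 4SU+UVA against untreated cells, 12 of the 37 members rose, 15 fell and 10 did not pass the test. Across all genes tested 40.6% rose and 18.4% fell (59% in all), and the median log2 change was -0.10 over the members and 0.23 over all genes. The members that fell most were EIF5B, EIF3A, PABPC1, EIF4G1, GSPT1 and EEF2, and EIF1 rose most. Since the median gene itself moved by 0.23, the split depends on the scale: with each library centred on its median gene 5 members rose and 19 fell (27% and 25.1% of all genes, 52.1% together), and after quantile normalisation 7 rose and 18 fell (26.2% and 25.3% of all genes, 51.4% together). On all 3 scales the same 15 members fell, and 4 rose, namely EIF4A2, EIF5A, EIF6 and EIF1. EIF3G rose by 0.15 as deposited (adjusted p = 0.041) but had a change of -0.02 once libraries were centred. Leaving out untreated replicate 1 left 8 members higher and 15 lower, and without ENSG00000124786 there were 11 higher and 15 lower of 36.

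**Figure D1:**
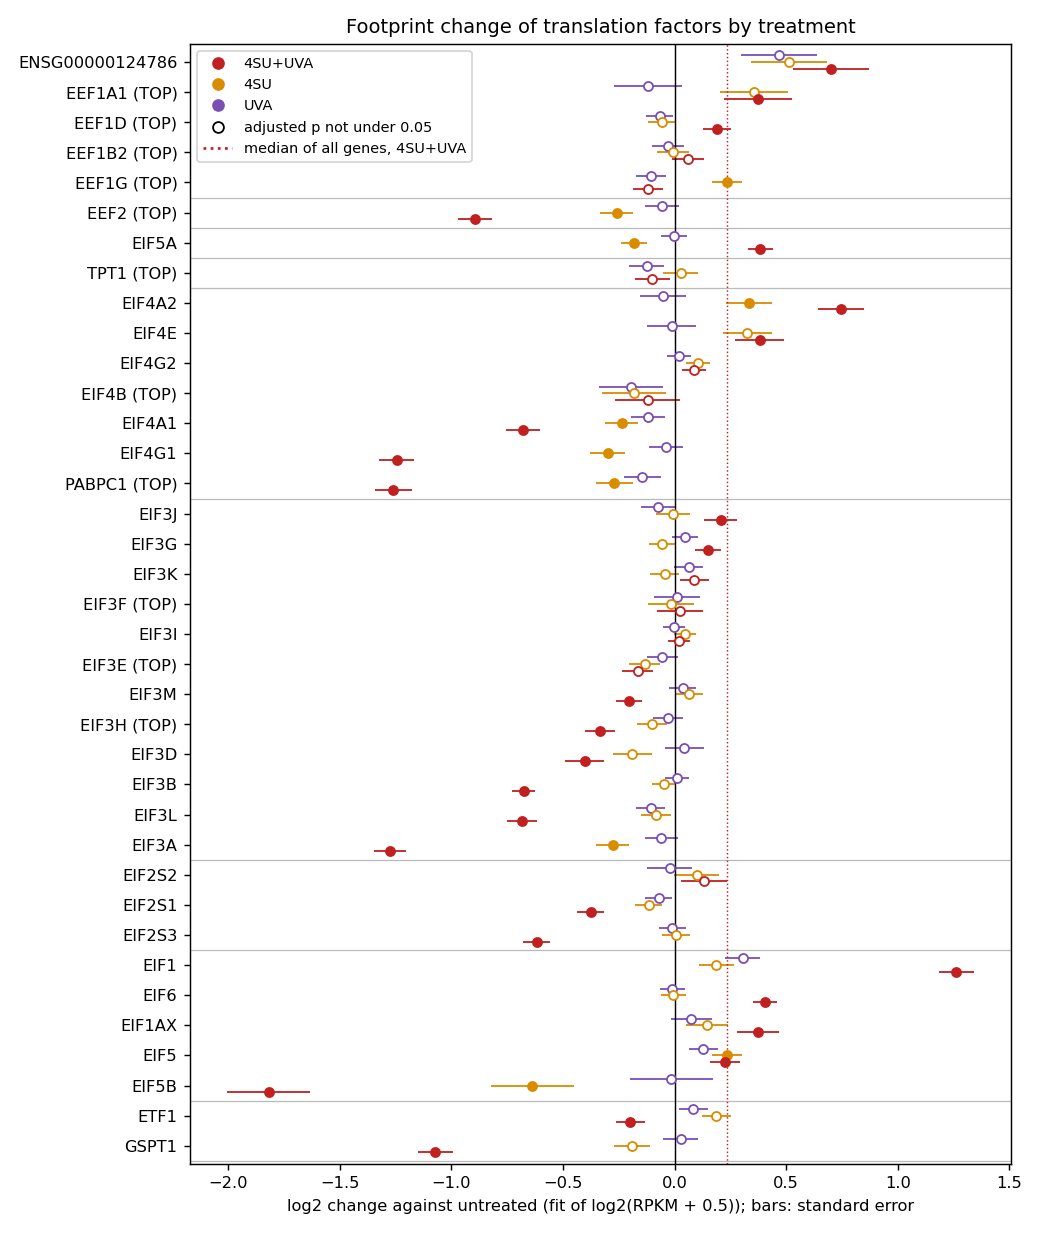
Log2 change in footprint density against untreated cells (x axis) for the 37 members tested, ordered by role, with red points for 4SU+UVA, orange for 4SU and violet for UVA, filled where the adjusted p was under 0.05, and bars for the standard error. The 15 members that fell with 4SU+UVA lie left of 0, EIF5B farthest at -1.82, while no violet point is filled.

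Among the elongation factors EEF2 (ENSG00000167658), the GTPase that moves the ribosome by one codon, had the highest footprint density of the set. The 3 untreated libraries gave EEF2 2210.4, 2239 and 2324 RPKM, the 4SU libraries 1694, 1882 and 2101, the UVA libraries 2203, 2079 and 2238 and the 4SU+UVA libraries 1311, 1088 and 1258. The 4SU+UVA libraries lay below all others and the 4SU libraries below the untreated ones. Mean EEF2 density went from 2258 ± 59 RPKM in untreated to 1219 ± 117 in 4SU+UVA cells (SD, n = 3), a log2 change of -0.89 (standard error 0.076, adjusted p = 3.1e-07). This is a 1.86-fold lower density. EEF2 alone took 0.713% ± 0.0187 of the footprints of the untreated libraries and 0.385% ± 0.0368 of the 4SU+UVA ones (SD, n = 3).

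The eEF1 group loads aminoacyl-tRNA onto the ribosome and recharges eEF1A with GTP. With 4SU+UVA 3 of its 5 rows, ENSG00000124786 among them, were called higher and none lower, against 40.6% and 18.4% of all genes tested. After median centring 1 was higher and 1 lower, and after quantile normalisation 0 of the 5 were called either way. EEF1D, a subunit of the exchange complex, rose by 0.19 (adjusted p = 0.016), but this call was lost without untreated replicate 1 (adjusted p = 0.054), without untreated replicate 3 (0.052) and without 4SU+UVA replicate 2 (0.065). For EEF1A1 itself the change was 0.37 (adjusted p = 0.045). Untreated cells had 40.0, 36.9 and 38.4 RPKM of EEF1A1, 4SU cells 53.1, 47.9 and 47.0, UVA cells 31.7, 35.0 and 39.8 and 4SU+UVA cells 60.8, 57.1 and 35.7. 4SU+UVA replicate 3 lay below the untreated ones, so the groups overlapped, and leaving out any one of the untreated or 4SU libraries, UVA replicate 2 or 4SU+UVA replicates 1 or 2 ended the call (adjusted p from 0.05 to 0.22). The level of EEF1A1 is itself uncertain, because the gene has many near-identical pseudogene copies and the handling of reads that map to several places is not given in the sources used here. EEF1G, another exchange subunit, had the lowest change of the group. For EEF1G the replicates read 188, 177 and 161 RPKM untreated, 191, 209.9 and 217 for 4SU, 160.2, 158 and 169 for UVA and 159, 159 and 166 for both. The log2 change of EEF1G in 4SU+UVA against untreated cells was -0.12 (standard error 0.067, adjusted p = 0.14), between means of 175 ± 13.5 and 161 ± 3.8 RPKM (SD, n = 3). It was called lower after median centring (-0.29, adjusted p = 0.0039) and without untreated replicate 3 (adjusted p = 0.047). Its 4SU libraries were the highest, and 4SU alone raised it by 0.23 (adjusted p = 0.031; after median centring adjusted p = 0.35). EEF1B2, the catalytic exchange subunit, ran between 133 and 158 RPKM in all 12 libraries with no change called.
ENSG00000124786 had few reads, 22 to 70 per library. ENSG00000124786 density was 3.46, 3.55 and 3.61 RPKM untreated, 7.03, 5.36 and 3.84 under 4SU, 5.16, 4.92 and 5.17 under UVA and 5.93, 5.42 and 6.92 under 4SU+UVA. The untreated libraries were below all of the others. ENSG00000124786 changed by 0.70 on the log2 scale with 4SU+UVA against untreated (standard error 0.17, adjusted p = 0.0027), from a mean of 3.54 ± 0.0748 to 6.09 ± 0.761 RPKM (SD, n = 3). After quantile normalisation it no longer passed (adjusted p = 0.056).

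EIF5A (ENSG00000132507), a factor that helps ribosomes through difficult peptide bonds, moved the opposite way to EEF2. The 3 untreated libraries gave EIF5A 435, 461 and 466 RPKM, the 4SU libraries 436, 392 and 374, the UVA libraries 455, 445 and 457 and the 4SU+UVA libraries 591, 573 and 614. Mean EIF5A density went from 454 ± 16.5 RPKM in untreated to 593 ± 20.2 in 4SU+UVA cells (SD, n = 3), a log2 change of 0.38 (standard error 0.058, adjusted p = 6.2e-05). All 3 4SU+UVA libraries were above every other library. With 4SU alone it was lower by 0.18 on the log2 scale, with an adjusted p of 0.05 that was under the threshold only before rounding and with overlapping libraries. TPT1, a small eEF1A-binding protein with a TOP mRNA, did not pass the test. Untreated cells had 387, 383 and 389 RPKM of TPT1, 4SU cells 392, 379.6 and 411, UVA cells 353, 343 and 367 and 4SU+UVA cells 400.1, 306 and 383. The log2 change of TPT1 in 4SU+UVA against untreated cells was -0.10 (standard error 0.079, adjusted p = 0.29), between means of 386 ± 3.29 and 363 ± 50.1 RPKM (SD, n = 3). The 4SU+UVA libraries spread more widely than the rest and overlapped them, and on the median-centred and quantile scales TPT1 was called lower, with changes of -0.27 and -0.24.

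In the cap and poly(A) group 2 members rose, 3 fell and 2 did not pass with 4SU+UVA, against 40.6% higher and 18.4% lower of all genes. The paralogous helicases EIF4A1 (ENSG00000161960) and EIF4A2 (ENSG00000156976), which unwind mRNA ahead of the small subunit, went in opposite directions. For EIF4A1 the replicates read 659.7, 634 and 683 RPKM untreated, 548, 543 and 585 for 4SU, 576, 602 and 644 for UVA and 473, 387 and 379.7 for both. EIF4A2 density was 50.1, 52.9 and 58.7 RPKM untreated, 70.7, 63.6 and 69.5 under 4SU, 53.4, 50.1 and 52.2 under UVA and 77.0, 108 and 89.2 under 4SU+UVA. With 4SU+UVA EIF4A1 was below, and EIF4A2 above, every library of the other 3 groups. EIF4A1 changed by -0.68 on the log2 scale with 4SU+UVA against untreated (standard error 0.075, adjusted p = 3.6e-06), from a mean of 659 ± 24.5 to 413 ± 51.8 RPKM (SD, n = 3). Mean EIF4A2 density went from 53.9 ± 4.42 RPKM in untreated to 91.3 ± 15.5 in 4SU+UVA cells (SD, n = 3), a log2 change of 0.75 (standard error 0.10, adjusted p = 2.7e-05). The same directions were called with 4SU alone, at -0.24 (adjusted p = 0.047) for EIF4A1 and 0.33 (adjusted p = 0.041) for EIF4A2, though neither held on all 3 scales.

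The scaffold paralogs were next. EIF4G1 (ENSG00000114867) ties eIF4E to eIF4A, eIF3 and poly(A)-binding protein, while EIF4G2 (DAP5) lacks the eIF4E-binding part. The 3 untreated libraries gave EIF4G1 188, 192 and 181 RPKM, the 4SU libraries 136, 154 and 166, the UVA libraries 179.7, 186 and 179 and the 4SU+UVA libraries 72.5, 76.9 and 86.6. The 4SU+UVA libraries of EIF4G1 were all under the lowest library of the other groups. The log2 change of EIF4G1 in 4SU+UVA against untreated cells was -1.25 (standard error 0.077, adjusted p = 1.6e-08), between means of 187 ± 5.48 and 78.7 ± 7.21 RPKM (SD, n = 3). Untreated cells had 259, 268 and 268 RPKM of EIF4G2, 4SU cells 293, 288 and 273, UVA cells 267, 279 and 259 and 4SU+UVA cells 269, 293 and 284. For EIF4G2 all of the 4SU+UVA values lay within the range of the 4SU values or just under it. EIF4G2 changed by 0.09 on the log2 scale with 4SU+UVA against untreated (standard error 0.054, adjusted p = 0.17), from a mean of 265 ± 5.11 to 282 ± 12.3 RPKM (SD, n = 3). The cytosolic poly(A)-binding protein PABPC1 (ENSG00000070756), also a TOP mRNA, fell by 1.26 on the log2 scale. For PABPC1 the replicates read 233, 209 and 216 RPKM untreated, 159.7, 179.7 and 209 for 4SU, 195, 199.7 and 200.4 for UVA and 87.3, 89.0 and 97.5 for both. Mean PABPC1 density went from 219 ± 12 RPKM in untreated to 91.3 ± 5.48 in 4SU+UVA cells (SD, n = 3), a log2 change of -1.26 (standard error 0.083, adjusted p = 2.9e-08). PABPC1 density was 2.4-fold lower and no 4SU+UVA library reached the lowest of the other groups. The cap-binding protein EIF4E rose by 0.38 (adjusted p = 0.0083; not called after median centring, adjusted p = 0.12). EIF4B, a cofactor of eIF4A with a TOP mRNA, ran from 7.87 to 11.99 RPKM, with 73 to 236 reads per library and no change called.

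**Figure D2:**
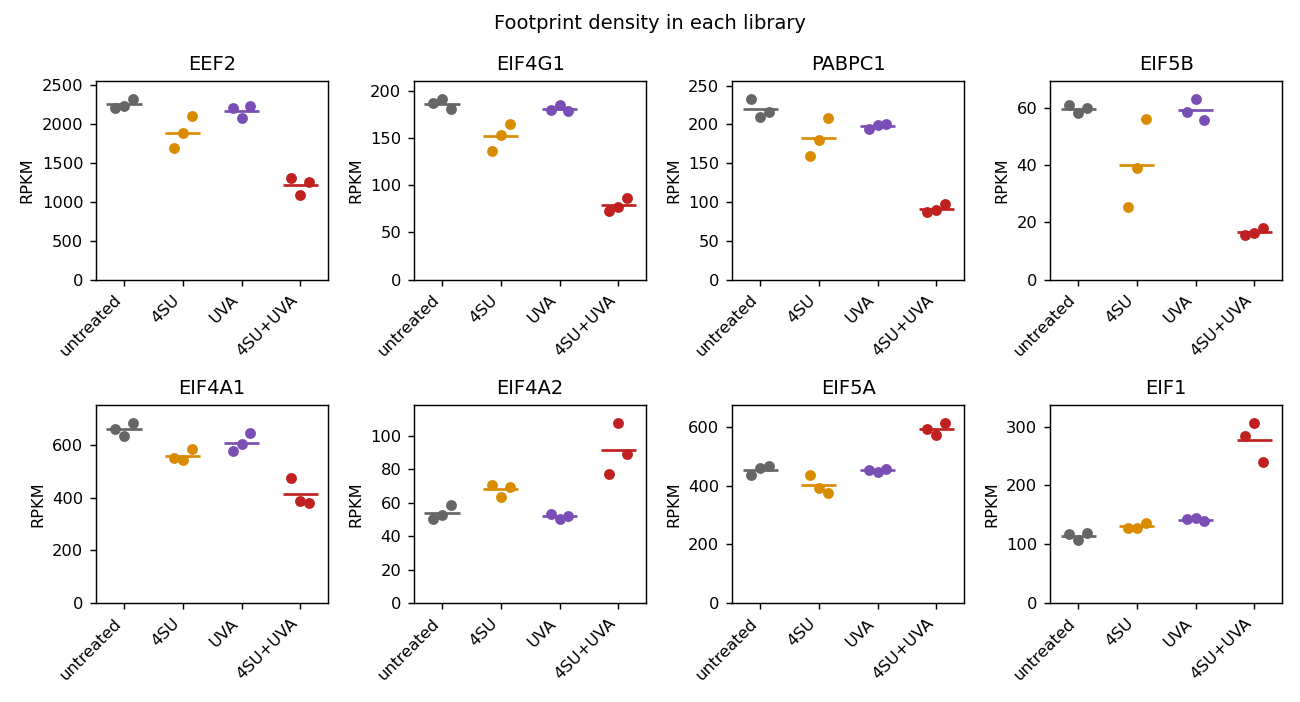
Footprint density (RPKM, y axis from 0) of 8 members in each of the 12 libraries, grouped by treatment on the x axis, with a line at each group mean. EEF2, EIF4G1, PABPC1, EIF5B and EIF4A1 were lowest, and EIF4A2, EIF5A and EIF1 highest, in the 4SU+UVA libraries.

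Within eIF3, the large complex that binds the small subunit, 12 subunits were tested. Against 40.6% and 18.4% of all genes that rose and fell, 2 of the 12 rose, 6 fell and 4 did not pass. EIF3A (ENSG00000107581), the largest scaffold subunit, fell most. EIF3A density was 113, 110.0 and 113 RPKM untreated, 83.4, 91.8 and 103 under 4SU, 104, 109 and 109.5 under UVA and 44.9, 44.7 and 48.3 under 4SU+UVA. In 4SU+UVA cells its density was less than any library elsewhere. The log2 change of EIF3A in 4SU+UVA against untreated cells was -1.28 (standard error 0.073, adjusted p = 8.1e-09), between means of 112 ± 1.7 and 46.0 ± 2.01 RPKM (SD, n = 3). EIF3B, the other core scaffold, and EIF3L fell by 0.68 each (adjusted p = 1.6e-07 and 1.1e-06). EIF3D, which can itself bind the cap of some mRNAs, fell by 0.40 (adjusted p = 0.0012), EIF3H, of the TOP list, by 0.33 (adjusted p = 0.00058), and EIF3M by 0.20 (adjusted p = 0.0087). The subunit with the highest change was EIF3J, a loosely bound subunit. The 3 untreated libraries gave EIF3J 31.8, 32.0 and 30.8 RPKM, the 4SU libraries 33.1, 29.2 and 32.0, the UVA libraries 28.1, 30.9 and 30.9 and the 4SU+UVA libraries 36.9, 37.6 and 34.8. EIF3J changed by 0.21 on the log2 scale with 4SU+UVA against untreated (standard error 0.076, adjusted p = 0.029), from a mean of 31.5 ± 0.654 to 36.5 ± 1.43 RPKM (SD, n = 3). Its 4SU+UVA libraries were above all of the others, but the call was lost in 5 of the fits that left out one library, those without any one of the untreated libraries or without 4SU+UVA replicate 1 or 2 (adjusted p from 0.055 to 0.088), and on the median-centred and quantile scales (adjusted p = 0.72 and 0.077). EIF3G, the other subunit called higher, had a change of 0.15 as given above; without 4SU+UVA replicate 1 or 3, untreated replicate 1 or 2 or UVA replicate 2 or 3 its adjusted p ran from 0.051 to 0.2.

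The small subunits EIF3I and EIF3K and the TOP-list subunits EIF3E and EIF3F were not called on the deposited scale. EIF3I, at 371 to 409 RPKM in all libraries, changed by 0.02 as deposited (adjusted p = 0.73), but by -0.15 after median centring (adjusted p = 0.031) and -0.13 after quantile normalisation (adjusted p = 0.023), so its call and sign depend on the scale. EIF3E changed by -0.16 (adjusted p = 0.055), and it was called lower after median centring (-0.34, adjusted p = 0.0012), after quantile normalisation (-0.19, adjusted p = 0.033) and without 4SU+UVA replicate 3 or UVA replicate 1 (adjusted p = 0.023 and 0.037). EIF3K changed by 0.09 (adjusted p = 0.26; without 4SU+UVA replicate 2, 0.032) and EIF3F by 0.02 (adjusted p = 0.85). EIF3F ran at 14.7 to 19.1 RPKM on a row transcript of 7540 nt, the longest among the members, and RPKM is scaled to this whole length, untranslated parts included. EIF3C had 21, 6, 24 and 11 reads in the 3 untreated, 4SU, UVA and 4SU+UVA libraries together and no test; it shares near-identical sequence with EIF3CL, and reads of both cannot be told apart here. Changes within this one complex thus ran from -1.28 for EIF3A to 0.21 for EIF3J.

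The 3 subunits of eIF2, which carries the initiator tRNA, had 2 falls and 1 member that did not pass, where 18.4% of all genes fell. EIF2S3, the tRNA-binding gamma subunit, had the lowest change and EIF2S2, the beta subunit, the highest. Untreated cells had 153, 149 and 150.4 RPKM of EIF2S3, 4SU cells 149, 148 and 156, UVA cells 147, 150.1 and 152 and 4SU+UVA cells 105, 89.5 and 100.2. For EIF2S2 the replicates read 33.4, 37.0 and 32.2 RPKM untreated, 41.7, 34.8 and 33.8 for 4SU, 31.6, 35.7 and 33.7 for UVA and 35.3, 35.0 and 42.5 for both. The EIF2S3 libraries of the 4SU+UVA group were separate from all others, while those of EIF2S2 overlapped. Mean EIF2S3 density went from 151 ± 2.13 RPKM in untreated to 98.2 ± 7.85 in 4SU+UVA cells (SD, n = 3), a log2 change of -0.62 (standard error 0.062, adjusted p = 1.5e-06). The log2 change of EIF2S2 in 4SU+UVA against untreated cells was 0.13 (standard error 0.10, adjusted p = 0.27), between means of 34.2 ± 2.49 and 37.6 ± 4.27 RPKM (SD, n = 3). EIF2S1, the alpha subunit that stress kinases phosphorylate, fell by 0.38 (adjusted p = 0.0001).

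Of the 5 factors of start-site choice and subunit joining, 4 rose and 1 fell with 4SU+UVA, against 40.6% and 18.4% of all genes. EIF1 (ENSG00000173812), which keeps the scanning small subunit open until a start codon is found, had the largest rise of the set. EIF1 density was 117, 107 and 119.8 RPKM untreated, 128, 128 and 136 under 4SU, 143, 144 and 139 under UVA and 285, 306 and 240.1 under 4SU+UVA. All 4SU+UVA libraries were above every other library, and the UVA libraries were above all untreated and 4SU ones. EIF1 changed by 1.26 on the log2 scale with 4SU+UVA against untreated (standard error 0.079, adjusted p = 1.7e-08), from a mean of 115 ± 6.7 to 277 ± 33.8 RPKM (SD, n = 3). This is a 2.4-fold higher density. EIF5B (ENSG00000158417), the GTPase that joins the large subunit, had the largest fall. The 3 untreated libraries gave EIF5B 61.2, 58.2 and 60.2 RPKM, the 4SU libraries 25.5, 38.9 and 56.3, the UVA libraries 58.8, 63.2 and 55.8 and the 4SU+UVA libraries 15.6, 16.3 and 18.0. Mean EIF5B density went from 59.8 ± 1.52 RPKM in untreated to 16.6 ± 1.24 in 4SU+UVA cells (SD, n = 3), a log2 change of -1.82 (standard error 0.19, adjusted p = 1.8e-06). Here the 4SU+UVA libraries were at 15.6 to 18.0 RPKM, a 3.52-fold lower density, and the 4SU libraries differed from each other far more than those of any other group. EIF6, which holds the large subunit back from joining, rose by 0.40 (adjusted p = 2.7e-05). EIF1AX, the scanning partner of eIF1, rose by 0.37 (adjusted p = 0.0031), and EIF5, which triggers GTP hydrolysis by eIF2, by 0.23 (adjusted p = 0.009); neither was called higher after median centring.

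Both release factors fell with 4SU+UVA, as did 18.4% of all genes tested. ETF1 (eRF1) reads the stop codon and GSPT1 (eRF3, ENSG00000103342) is its GTPase partner. Untreated cells had 53.9, 50.2 and 56.9 RPKM of ETF1, 4SU cells 60.6, 60.8 and 61.8, UVA cells 55.7, 58.7 and 56.2 and 4SU+UVA cells 47.6, 47.0 and 45.4. For GSPT1 the replicates read 183, 186 and 194 RPKM untreated, 156, 163 and 175 for 4SU, 201, 205 and 169.6 for UVA and 94.2, 81.8 and 91.6 for both. In both genes the 4SU+UVA libraries lay below all others. The log2 change of ETF1 in 4SU+UVA against untreated cells was -0.20 (standard error 0.065, adjusted p = 0.017), between means of 53.7 ± 3.33 and 46.7 ± 1.11 RPKM (SD, n = 3). GSPT1 changed by -1.07 on the log2 scale with 4SU+UVA against untreated (standard error 0.079, adjusted p = 8.3e-08), from a mean of 188 ± 5.77 to 89.2 ± 6.58 RPKM (SD, n = 3). ETF1 was no longer called without untreated replicate 3 (adjusted p = 0.089) or 4SU+UVA replicate 3 (adjusted p = 0.053).

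The TOP mRNAs were then set against the other members. Of the 11 members on the TOP list 2 rose with 4SU+UVA (EEF1A1 and EEF1D), 3 fell (EEF2, PABPC1 and EIF3H) and 6 did not pass, namely EEF1B2, EEF1G, EIF3E, EIF3F, EIF4B and TPT1. Of the 26 others tested 10 rose, 12 fell and 4 did not pass (EIF4G2, EIF3I, EIF3K and EIF2S2). Those called either way were 45.5% of the TOP list and 84.6% of the others. Across all genes tested 40.6% rose and 18.4% fell, or 59% in all. The median log2 change was -0.12 for the TOP list and 0.05 for the others, a difference of -0.17. Taken library by library, as the median of the TOP list minus that of the others relative to the untreated means, it averaged -0.0002 ± 0.0321 in untreated, -0.0311 ± 0.0384 in 4SU, -0.0975 ± 0.0604 in UVA and -0.0984 ± 0.0223 in 4SU+UVA libraries (SD, n = 3), so on this measure the 4SU+UVA and UVA libraries overlapped. No test was made of it, since members are not replicates. The TOP list did not move as a block: PABPC1 and EEF2 changed by -1.26 and -0.89, while 8 of its members lay between -0.16 and 0.37, and EIF3H at -0.33. After median centring none of the 11 rose and 6 fell, against 5 and 13 of the 26 others and 27% and 25.1% of all genes.

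The difference was 0.20 with members sorted by the motif within 5 bases of an annotated RefSeq start, in place of the textbook list. This sort changed both the definition and the members compared. PABPC1, EIF3H, EEF1D and EIF3E of the TOP list had no start and were left out. So were EIF3A, EIF3L, EIF3G, EIF2S2 and ENSG00000124786 of the others. The motif within 5 bases was also found for 11 of the 22 others with a start. Among the tested members with a start, the textbook list kept the lower median (-0.10, that of TPT1, against 0.02, that of EIF3I). Leaving out the members without a start thus did not by itself change the sign. By the motif at the first base, 2 of 11 members rose and 4 fell (median -0.10), against 7 and 7 of the 17 without it (median 0.02). Of all genes tested 40.6% rose and 18.4% fell. In this comparison the members with the motif at the first base kept the lower median, as with UVA alone (-0.028 against -0.004). They had the higher median in 4SU+UVA against 4SU (0.02 against -0.03) and in the interaction (0.03 against -0.14). With 4SU alone and in 4SU+UVA against UVA both medians lay close together. Of the windows printed above that open with a run of pyrimidines, those of EIF4A2 and EEF1A1 belong to members that rose, those of EIF2S3 and EEF2 to members that fell, and those of EIF4B, EIF3F and TPT1 to members not called. The other contrasts gave a difference between TOP list and others of -0.05 for 4SU, -0.06 for UVA, -0.01 for 4SU+UVA against 4SU and -0.01 against UVA.

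As a share of all footprints the members together took 1.99% ± 0.0316 in untreated, 1.82% ± 0.0959 in 4SU, 1.95% ± 0.02 in UVA and 1.46% ± 0.0602 in 4SU+UVA libraries (SD, n = 3). The fall in the EEF2 share given above was larger than that of all other members together. The other 10 TOP-list members held 0.247% ± 0.00532 in untreated and 0.217% ± 0.00806 in 4SU+UVA libraries, and the 27 others 1.03% ± 0.0131 and 0.853% ± 0.0162.

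Transcript length, recovered from the steps of the RPKM values, was set beside the calls. It is the length by which each row was scaled. The annotation behind it is not given, so it may differ from the length of a gene's main mRNA. The members that fell with 4SU+UVA had a median transcript of 3220 nt (1319 to 6659), those that rose 2013 nt (1097 to 4441), and those not called 1432 nt (780 to 7540). Over the 37 members Spearman's rho between length and log2 change was -0.329, and over all 11510 genes tested it was -0.219; both are descriptions across genes of the same libraries. EIF5B, EIF3A and EIF4G1, 3 of the members with the largest falls, had row transcripts of 5741, 6659 and 5667 nt. EIF4A1 and PABPC1, which also fell, had row transcripts of 1319 and 1768 nt. TOP-list members had a median of 1768 nt and the others one of 2479 nt. The part of length in the changes was not tested.

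**Figure D3:**
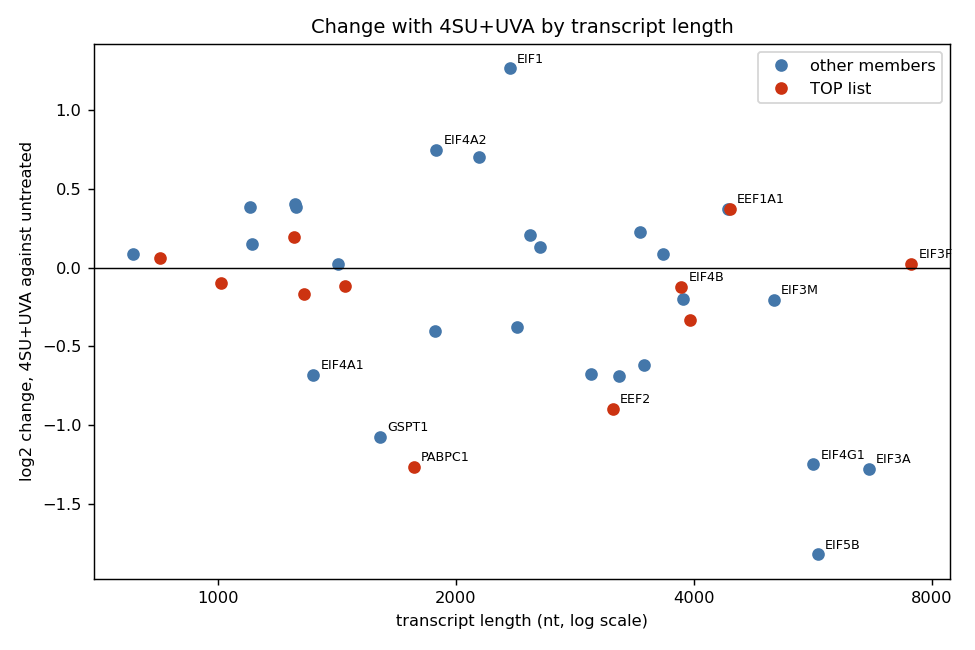
Log2 change with 4SU+UVA against untreated (y axis) by transcript length in nt (x axis, log scale) for the 37 members tested, red for the TOP list and blue for the others. EIF5B, EIF3A and EIF4G1 lie at the long end with falls beyond 1.2, while the longest row, EIF3F at 7540 nt, is near 0.

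With 4SU alone, 3 members rose, 7 fell and 27 did not pass, against 11.3% and 3.12%, or 14.4% together, of all genes tested. Those that fell were EEF2, EIF4A1, EIF4G1, EIF3A, EIF5A, EIF5B and PABPC1, and those that rose were EEF1G, EIF4A2 and EIF5. Sizes were small, from -0.30 to -0.18 for 6 of the 7, with -0.64 for EIF5B (adjusted p = 0.034). After median centring 0 rose and 11 fell, against 5.56% and 9.38% (14.9% together) of all genes, and after quantile normalisation 0 rose and 5 fell, against 5.89% and 4.32% (10.2% together). The 5 that fell on all 3 scales were EEF2, EIF4G1, EIF3A, EIF5B and PABPC1.

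These calls rest on few libraries. No member was called lower without untreated replicate 1, untreated replicate 2 or 4SU replicate 2, 1 was without untreated replicate 3 or 4SU replicate 1, and 4 were without UVA replicate 1 or UVA replicate 2. Called higher were 1 member without untreated replicate 1 or any one of the 4SU replicates, 0 without untreated replicate 2 and 5 without 4SU+UVA replicate 3. The 4SU libraries differed among themselves in the genes that fell with 4SU+UVA: among those 15 members 4SU replicate 1 was the lowest of the 3 in 11 and 4SU replicate 3 the highest in 13. For EIF5B the 4SU values were 25.5 RPKM in replicate 1 and 56.3 in replicate 3, and leaving out replicate 1 gave a change of -0.35 (adjusted p = 0.11). Of all 2122 genes that fell with 4SU+UVA, 4SU replicate 1 was the lowest in 47% and replicate 3 the highest in 52.9%, so this spread is not confined to the translation factors.

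With UVA alone no member passed the limma test (0 of 37), against 0.278% higher and 0.374% lower, or 0.652% together, of all genes tested. At an unadjusted p under 0.05 there were 2, ENSG00000124786 and EIF1, and 8.43% of all genes. The lowest adjusted p was that of EIF1, whose UVA libraries were all above the untreated ones and whose change was 0.31 (adjusted p = 0.15). EIF1 was called higher by limma voom on recovered reads (adjusted p = 0.029), in a fit of the UVA and untreated libraries alone (adjusted p = 0.038), and without 4SU+UVA replicate 3 (adjusted p = 0.035). The largest change, 0.47, was that of ENSG00000124786 (adjusted p = 0.42).

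In cells that carried 4SU, UVA changed 22 of the 37 members (4SU+UVA against 4SU): 7 rose and 15 fell, against 25% and 19%, or 44% together, of all genes. The falls included EIF5B (-1.18), EIF3A (-0.998), PABPC1 (-0.99), EIF4G1 (-0.95), GSPT1 (-0.88) and EEF2 (-0.63), and the rises EIF1 (1.07), EIF5A (0.57), EIF6 and EIF4A2 (0.41 each). EEF1G fell in this comparison by 0.35 (adjusted p = 0.0007), from a mean of 206 to one of 161 RPKM. Of irradiated cells, those with 4SU differed from those without in 24 members (4SU+UVA against UVA), 9 higher and 15 lower, against 34.7% and 19.8%, or 54.4% together, of all genes. These comparisons and that with untreated cells share the 4SU+UVA libraries.

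The effect of UVA in 4SU cells was tested against its effect in cells without 4SU, as the interaction term of the model. It passed for 17 of the 37 members, 5 above 0 and 12 below, against 10.7% and 14.1%, or 24.8% together, of all genes tested. The 12 below 0 were EIF5B (-1.16), EIF3A (-0.94), GSPT1 and EIF4G1 (-0.91 each), PABPC1 (-0.85), EIF3B (-0.64), EIF2S3 (-0.61), EEF2 (-0.58), EIF3L (-0.49), ETF1 (-0.47), EIF4A1 (-0.32) and EIF3M (-0.31). The 5 above 0 were EIF1 (0.77), EIF5A (0.57), EIF4A2 (0.46), EIF6 (0.42) and EEF1D (0.31). Without UVA replicate 2 only 3 were above 0, EEF1D (adjusted p = 0.051) and EIF4A2 (adjusted p = 0.067) being lost. EIF4A2 was also lost without 4SU replicate 2, 4SU+UVA replicate 2 or untreated replicate 2 or 3 (adjusted p from 0.05 to 0.08), and EIF4A1 in 8 of the fits without one library (adjusted p from 0.051 to 0.09). The TOP list had a median interaction higher than that of the others by 0.19, with EEF2 and PABPC1 below 0, EEF1D above, and the other 8 not called.

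**Figure D4:**
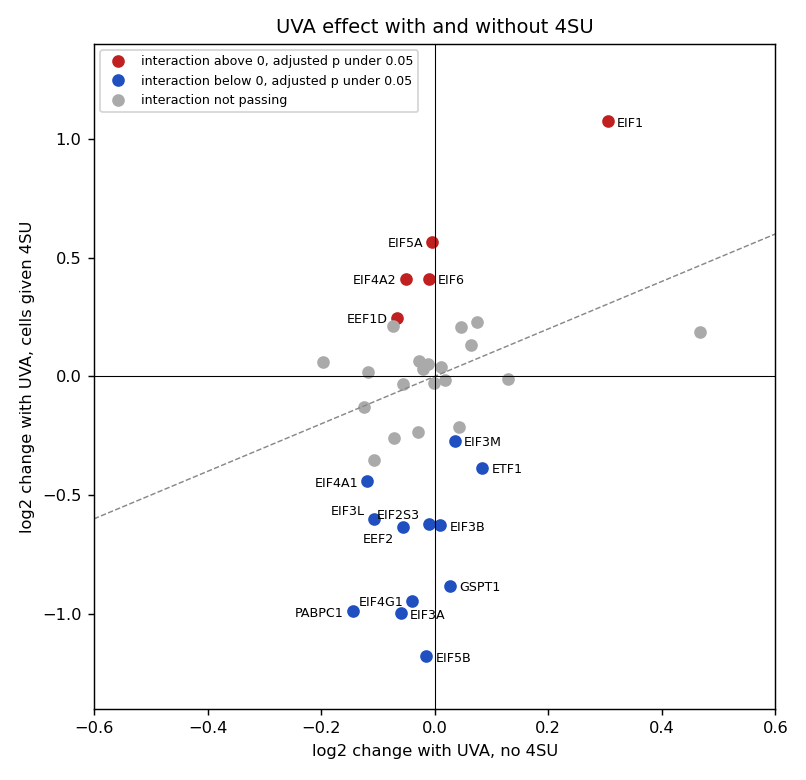
Log2 change with UVA in cells given 4SU (y axis) against the change with UVA in cells without 4SU (x axis) for the 37 members tested; blue and red points passed the test of the difference below and above 0, and the dashed line marks equal effects. The named points spread from -1.18 for EIF5B to 1.07 for EIF1 along y and stay within 0.31 of 0 along x.

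Several members overlap other genes in the RefSeq annotation, among them protein-coding neighbours for EIF3A (NANOS1), EIF3B (SNX8), EIF3J (SPG11), EIF3M (CCDC73), EIF2S1 (GPHN), EIF5B (REV1) and EIF3G (P2RY11 and its readthrough with PPAN). Whether reads were counted by strand is not given in the sources used here, so reads of such neighbours could not be told apart from those of the members.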

How the data were processed

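RPKM values of 12 footprint libraries were deposited by the authors in a single table. STAR 2.7.10a, an aligner, and the build hg38 are named in the submitters' processing notes. For the counter, the annotation, filters and multi-mapping reads nothing is given in these sources, and no molecular identifiers are described per the labels' protocols. Reads and transcript lengths were recovered from the RPKM steps; this step and the tests were tested on simulated data. Genes at 1 RPKM or more in 3 or more libraries were fitted with limma 3.58.1 in R 4.3.3 on log2(RPKM + 0.5), which understates changes of low genes, as 1 model of 4 group means (8 residual degrees of freedom, variance trend). The labels call the replicates biological. Each p-value sets a difference of group means against the spread between these samples only, moderated over all genes tested.

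The members, the TOP list and the other lists were chosen with earlier results of these data known. Every member is named; full values are given for the highest and lowest change with 4SU+UVA in each role and for the eIF4A and eIF4G paralogs. None of the table's identifiers occurred in the RefSeq gene table (0 matched), so further lists (other translation factors, ribosomal proteins, cell type markers) were not tested. Alternatives were other pseudocounts, filters, scalings, variance models and sample sets, a replicate block, and voom on recovered reads.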

Additional observations from a re-analysis of the deposited data

Results flagged for a closer look

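The UVA effect in cells given 4SU differed from the UVA effect in cells without 4SU (limma interaction term, Benjamini-Hochberg adjusted p under 0.05) for 17 of the 37 members tested. Across all genes tested it differed for 24.8%, with 10.7% above 0 and 14.1% below. The difference between the log2 changes was below 0 for EIF5B (-1.16), EIF3A (-0.94), GSPT1 (-0.91), EIF4G1 (-0.91), PABPC1 (-0.85), EIF3B (-0.64), EIF2S3 (-0.61), EEF2 (-0.58), EIF3L (-0.49), ETF1 (-0.47), EIF4A1 (-0.32) and EIF3M (-0.31). It was above 0 for EEF1D (0.31), EIF6 (0.42), EIF4A2 (0.46), EIF5A (0.57) and EIF1 (0.77). After median centring EIF4A1 no longer passed this limma test (adjusted p = 0.088), and EIF3J did (adjusted p = 0.041).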

How the results depend on the processing

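The 15 members lower with 4SU+UVA against untreated numbered 15 to 19 in the alternatives run, and 15 or 16 without any one library; those higher numbered 5 after median centring, 7 after quantile normalisation and 8 to 12 without any one library. With 4SU alone the members higher numbered 0 after median centring, 0 after quantile normalisation, 0 without a variance trend, 6 by voom on recovered reads (chosen after seeing the data) and 0 to 5 without any one library; those lower numbered 2 with no filter on low values, 11 after median centring, 0 without a trend, 4 in a fit of the groups compared and 0 to 7 without any one library. With UVA alone 1 member was higher by voom, 1 in a fit of the groups compared, 0 to 1 without any one library, and 0 were lower. For 4SU+UVA against 4SU the counts without any one library were 6 to 7 higher and 15 to 16 lower, against UVA 8 to 9 and 15, and for the interaction 3 to 5 and 11 to 14, with 3 higher in a fit without a trend. For the fits without a trend, filter or library, of the groups compared and by voom, the share of all genes is not given here. 

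The TOP list minus the others, as a difference of median log2 changes, ranged without any one library from -0.1767 to -0.1212 (4SU+UVA), -0.0881 to 0.0053 (4SU), -0.1037 to -0.0646 (UVA), -0.0764 to 0.0399 (4SU+UVA against 4SU), -0.0542 to 0.0242 (against UVA) and 0.1417 to 0.1996 (interaction). Sorted by the motif within 5 bases, over members with a start only, it was 0.2004 for 4SU+UVA, 0.0272 for 4SU and -0.0119 for UVA. By the same sort it was 0.3102 against 4SU, 0.195 against UVA and 0.2304 for the interaction. After quantile normalisation it was -0.0992 for 4SU+UVA, 0.1096 against 4SU and 0.0632 against UVA, and without 1 TOP-list member at a time its lowest value against 4SU was -0.0578. EIF3G changed by -0.0212 after median centring with 4SU+UVA, and EIF3I by -0.15 after median centring, -0.1262 after quantile normalisation and, against UVA, -0.1252 after quantile normalisation. The cause of these moves was not tested. Over all members, comparisons and alternatives 4415 values kept direction and call, 165 lost and 41 gained a call and 4 reversed.

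In the pairs of groups compared, deviations of same-numbered libraries correlated weakly at most (from -0.046 to 0.068), and the pair of 4SU and UVA was not examined. Of 12 libraries 6 correlated best with one of their own number. With the replicate block 7 in place of 10 members were called with 4SU, and 1612 in place of 1654 of all genes tested. In the other comparisons 27, 0, 22, 24 and 17 members were called, as without it. Over all genes tested the counts there were 6818, 76, 5045, 6223 and 2790, against 6796, 75, 5062, 6267 and 2857 without the block. The planned count models (edgeR, DESeq2) were not run, since the table holds RPKM. Depth limits EIF3C, ENSG00000124786 and EIF4B most.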
